A study of Homo sapiens with 7 samples.

Results

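The constructs described here are the reporter mutants in which cytosine was replaced by thymine. They were taken from the authors' deposited table of mutant against wild-type sequence by the alleles that close each construct's name, where a guanine replaced by adenine is the same change read on the other strand. There were 208 such C-to-T mutants among 1025 mutants of all kinds, spread over 135 of 376 tested regions, and 671 other single-base substitutions served as the comparison. The name gave the change as C to T for 99 of them and as G to A for 109. The written reference base was checked where sequence was at hand: 12 of 12 single-base substitutions inside a RefSeq promoter window had the base that their name gives. Of the C-to-T mutants, 1 lay in such a window.

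The mutants were read by lentiMPRA, a reporter assay on lentiviral vectors, in which each candidate regulatory sequence is cloned with a barcode, integrated into cells and read as barcode RNA over barcode genomic DNA (gDNA). The cells were C4-2B, an established prostate cancer epithelial line derived from LNCaP, with no other genotype or drug given in the labels. Of 7 libraries, 3 were gDNA and 3 were RNA, extracted 48 hours after transduction, and 1 tied barcodes to sequences. The table gives 1 estimate per mutant, taken here as the natural log of the odds ratio of RNA over gDNA against the wild-type construct, from a model that combined the replicates. Estimates are followed by their standard error (the estimate over its z value), a fold is a fold of these odds, and a mutant is called higher or lower where the authors' adjusted p was under 0.05. Regions are given in hg38, the build in the submitters' processing notes. No value per library is used, so the depth behind an estimate is unknown, the spread between replicates could not be measured (the labels do not say whether replicates were separate transductions), and the standard errors cover the error of the authors' model alone.

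A change of cytosine to thymine is a transition, an exchange of one pyrimidine for another. It can arise when cytosine loses its amino group, which happens readily when the cytosine is methylated and followed by guanine (a CpG). It is a common base change in the human germline and in many tumours. Within a regulatory sequence such a change can remove a contact of a transcription factor or create one, and reporter output can then fall, rise or stay the same.

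Reference sequence could be set beside 2 members, those whose changed base lay in a RefSeq hairpin or promoter window, and they are shown because they place a C-to-T mutant in annotated sequence. The first lay in a region inside FBXL7, which encodes an F-box protein of ubiquitin ligases, and the ends of that region were exactly those of the microRNA hairpin MIR887 (chr5:15935182-15935260, GRCh38.p14, plus strand). In the hairpin the capitals mark the mature hsa-miR-887-5p (chr5:15935191-15935211), and in the mature sequence they mark its seed, the bases by which a microRNA finds its targets.
MIR887: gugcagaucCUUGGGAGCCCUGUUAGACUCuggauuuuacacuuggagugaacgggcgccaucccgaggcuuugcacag
hsa-miR-887-5p: cUUGGGAGcccuguuagacuc
The changed cytosine lay outside hsa-miR-887-5p, the only mature part marked here, and was not followed by guanine. Whether it lay in a mature part of the other arm was not examined. The authors' deposited table placed this mutant at 0.40 ± 0.08, or 1.49-fold higher odds than wild-type (95% interval 1.27 to 1.76, adjusted p = 9.36e-06). It was the only mutant of its region.

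The second lay at the start of KPNA2, the gene of an importin alpha that carries proteins into the nucleus. The stretch below is the part of the tested region that precedes the KPNA2 transcription start, from 217 bases before it to 1 base before it (chr17:68035518-68035734, GRCh38.p14, plus strand), with every CG in capitals.
KPNA2: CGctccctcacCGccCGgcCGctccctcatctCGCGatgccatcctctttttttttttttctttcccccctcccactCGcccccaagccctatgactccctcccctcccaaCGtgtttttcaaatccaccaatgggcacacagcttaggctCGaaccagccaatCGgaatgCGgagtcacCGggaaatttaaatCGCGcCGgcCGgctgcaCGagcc
The stretch held 17 CG pairs, and the 250 bases before the KPNA2 start held 22, where the median over 35116 RefSeq windows of that length was 11 and 93.9% of those windows held at least 1. The tested cytosine was one that is followed by guanine. Its mutant stood at 0.19 ± 0.10 by the authors' deposited table, or 1.21-fold, with an interval from 0.998 to 1.47, and was not called (adjusted p = 0.0851). The CpG context of members beyond these 2 was not analysed here.

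C-to-T mutants were called in both directions, at a share close to that of all mutants. Of the 208 members, 115 (55.3%) were called in the authors' deposited table, where 56.6% of all 1025 mutants were. Higher calls numbered 64 (30.8% of the members, against 29.5% of all mutants) and lower calls 51 (24.5%, against 27.1%). The other single-base substitutions gave 381 calls of 671 (56.8%), 198 higher and 183 lower. The exact intervals of the called shares, 48.3 to 62.2% for C-to-T and 52.9 to 60.6% for the others, overlapped, and they cover counting error alone, since mutants of a region are not independent. Higher calls made up 55.7% of the C-to-T calls (46.1 to 64.9%) and 52.0% of the others' (46.8 to 57.1%). Every share of the C-to-T mutants was thus close to the background, and the differences between classes were not tested.

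The number of calls depends on the threshold and on how z is scaled. With Bonferroni adjustment 66 C-to-T mutants were called, where 29.9% of all mutants were. At an adjusted p under 0.01 the count was 100 (background 48%) and under 0.1 it was 126 (background 63.2%). The z values of the whole table had a robust SD of 3.92, which real effects can widen as well as model error. Scaling by it treats the bulk of mutants as without effect, so it cannot show how many calls are real. After dividing every z by that SD, 0 C-to-T mutants were called from its normal p after Benjamini-Hochberg adjustment (background 0.195%), and 7 of 208 had an unadjusted p under 0.05, beside 52 of all 1025 mutants and 39 of 671 other substitutions.

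The classes were also set side by side. Shares called in the authors' deposited table were 57.5% for T-to-C, 55.4% for C-to-A, 59.7% for C-to-G, 54.4% for T-to-A and 55.3% for T-to-G mutants. Among calls, the share that was higher ran from 41.5% for C-to-A to 60.3% for T-to-G, with C-to-T at 55.7% between them.

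Effects were mostly modest. Over the 206 C-to-T mutants with a bounded estimate, the median estimate in the authors' deposited table was 0.02 (quartiles -0.24 and 0.40), and 108 lay above 0. The other substitutions had a median of 0.03 (quartiles -0.27 and 0.30). The median size of a C-to-T estimate, whatever its sign, was 0.30 by the authors' deposited table, or 1.36-fold, beside 0.29 for the others. Among called mutants the median size was 0.60 for C-to-T, or 1.83-fold, and 0.51, or 1.67-fold, for the others. Higher C-to-T calls had a median estimate of 0.63 against 0.48 for the higher calls of the others, and lower ones of -0.54 against -0.55. C-to-T estimates spanned -2.25 to 4.13 in the authors' deposited table, inside the -3.77 to 3.34 of the others at the low end and beyond it at the high end. The other 2 members, both in a region inside MICAL3, stood at 18.1 and -17.6 with standard errors of 1574 and 578, were left out of these medians as unbounded, and were not called (chr22:17947615-17949354).

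Called estimates were larger where the standard error was larger. The median standard error was 0.12 for C-to-T (quartiles 0.08 and 0.20) and 0.11 for the other substitutions (0.08 and 0.19). Of 73 C-to-T mutants with a standard error up to 0.1, 44 were called (60.3%), with a median size of 0.30. Between 0.1 and 0.2, 45 of 80 were called (56.3%) at a median size of 0.63, and between 0.2 and 0.5, 23 of 50 (46.0%) at 1.29. The corresponding shares of the other substitutions in the authors' deposited table were 57.7, 57.1 and 55.1%, with median sizes of 0.29, 0.59 and 1.12. Of 5 C-to-T mutants with a standard error over 0.5, 3 were called, all higher, at a median size of 2.55. Of the other substitutions 12 of 23 were called there, at 2.61. The mutants not called there, 2 C-to-T and 11 others, were those with unbounded estimates, so these shares are not call rates of measured mutants. The 3 called C-to-T mutants were the NRG1, DIO3 and LOC105377015 members described below. A call needs a larger estimate where the standard error is larger. Of the 93 members not called, 43 had a 95% interval within 1.5-fold in either direction, and the rest allow larger changes. Among those 43 the smallest standard errors belonged to a mutant 97477 bp from SOX1, a neural transcription factor gene, at 0.05 ± 0.03, and to one 2062 bp from EP300, a histone acetyltransferase gene, at -0.07 ± 0.04, in the authors' deposited table.

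The lowest called C-to-T estimates, taking 1 per region, lay in or near a ubiquitin ligase gene, a nucleolar protein gene and a nucleotide metabolism gene. A mutant inside RNF41, a ubiquitin ligase gene whose product acts on the receptor ERBB3, stood at -2.25 ± 0.35 by the authors' deposited table, or 9.50-fold below wild-type (chr12:56203448-56204444, interval 4.74 to 19.0). A mutant 8867 bp from NOM1, which encodes a nucleolar protein, stood at -2.19 ± 0.16, or 8.91-fold lower (interval 6.46 to 12.3), and had the smallest p of all members per the authors' deposited table (adjusted p = 2.33e-38, chr7:156939721-156940845). The mutant 5001 bp from RRM2, a subunit of ribonucleotide reductase, stood at -1.90 ± 0.46 by the authors' deposited table, or 6.66-fold lower (chr2:10117353-10117567). In that RRM2 region the only other mutant, a C-to-G change, was called higher at 1.25 ± 0.38. The RNF41 and NOM1 regions also held calls of the opposite direction, described below.

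The 7 members that completed the lowest 10 lay between 2.54- and 4.52-fold lower. They were inside NETO2, an auxiliary subunit of kainate receptors, at -1.51 ± 0.37, and 5025 bp from HROB, a homologous recombination factor, at -1.48 ± 0.31, per the authors' deposited table (chr16:47077703-47079633 and chr17:44135990-44136905). The other C-to-T mutant of the HROB region was called higher, at 0.61 ± 0.11 per the authors' deposited table. Inside UCKL1, a uridine kinase family gene, the estimate was -1.45 ± 0.21, and 9386 bp from BDH1, an enzyme of ketone body metabolism, it was -1.31 ± 0.22, per the authors' deposited table (chr20:63953375-63953727 and chr3:197499279-197500397). The read-through gene ZNF511-PRAP1 held the only mutant of its region, at -1.29 ± 0.29 per the authors' deposited table (chr10:133323932-133324067). The mutant 630112 bp from LOC124901498 stood at -1.02 ± 0.18 per the authors' deposited table (chr6:164344489-164344623). Inside LLGL2, a cell polarity gene, the member with the smallest p stood at -0.93 ± 0.13 per the authors' deposited table (chr17:75532560-75533154).

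At the other end, the highest called estimate belonged to a mutant inside NRG1, the gene of a ligand of ERBB3 and ERBB4, at 4.13 ± 1.14 by the authors' deposited table, or 62.1-fold higher odds (chr8:32258966-32261520, adjusted p = 0.000812). Its 95% interval ran from 6.65- to 581-fold, the widest among called members. The wild-type construct of the same name stood at -3.75 ± 1.08 against scrambled sequence per the authors' deposited table, and both estimates use wild-type reads. A mutant 298 bp from MCPH1, the gene of microcephalin, a protein of the DNA damage response, was far better measured, at 2.57 ± 0.23 by the authors' deposited table, or 13.0-fold (chr8:6648806-6650052, interval 8.32 to 20.3, adjusted p = 2.17e-27). Its wild-type construct was itself called higher than scrambled sequence, at 0.70 ± 0.19 per the authors' deposited table. The mutant 9275 bp from DIO3, the deiodinase that inactivates thyroid hormone, stood at 2.55 ± 0.83 by the authors' deposited table, or 12.8-fold with an interval from 2.52 to 64.8 (chr14:101550223-101552220). Another C-to-T mutant of the DIO3 region was called lower, at -0.27 ± 0.06 in the authors' deposited table.

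Another 7 members made up the highest 10, from 3.31- to 6.59-fold. A mutant 1255 bp from TUBD1, the gene of delta-tubulin, stood at 1.89 ± 0.49 per the authors' deposited table (chr17:59858034-59858224). TDRD9, a helicase gene of the piRNA pathway, had a member at 1.54 ± 0.33 whose wild-type construct was called lower than scrambled sequence at -1.84 ± 0.31, per the authors' deposited table (chr14:103965607-103970606). Mutants 24653 bp from LOC105377015 and 3472 bp from ETF1, the translation termination factor eRF1, stood at 1.54 ± 0.53 and 1.52 ± 0.25 per the authors' deposited table (chr3:30577183-30579746 and chr5:138546708-138547195). Inside the axonemal dynein gene DNAH12 the estimate was 1.36 ± 0.23 per the authors' deposited table (chr3:57551277-57555073). The region inside IL18RAP, an interleukin-18 receptor subunit, and one inside IGSF11, an adhesion molecule gene, both gave 1.20, with standard errors of 0.17 and 0.44, per the authors' deposited table (chr2:102433711-102433953 and chr3:118946035-118947048). Behind these equal estimates the IL18RAP interval began at 2.40-fold and the IGSF11 interval at 1.41-fold.

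The members best separated from their wild-type construct were not always those with the largest estimates. Of the 10 members with the smallest p, 7 were among neither the lowest nor the highest 10, with estimates of 0.43 to 1.20 in size, one of them in the NWD1 region described below. A mutant 92333 bp from LOC124901483 stood at -0.88 ± 0.09 by the authors' deposited table, or 2.42-fold lower (chr6:21758393-21758534). Mutants 848 bp from SSB, the RNA-binding La protein gene, and 333 bp from CIAO3, a gene of cytosolic iron-sulphur protein assembly, were higher at 0.64 ± 0.07 and 0.63 ± 0.07 per the authors' deposited table (chr2:169794279-169798023 and chr16:741330-741695). TMEM132C, a transmembrane protein gene, had a member at 1.20 ± 0.15, with a wild-type construct called lower than scrambled sequence at -0.54 ± 0.10, per the authors' deposited table (chr12:128294179-128296178). GALNS, a lysosomal sulphatase, and CEP72, a centrosomal protein gene, had members at 0.66 ± 0.09 and 0.43 ± 0.06 per the authors' deposited table (chr16:88828941-88829161 and chr5:645941-646176).

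For 21 of 208 C-to-T mutants (10.1%) the whole 95% interval lay beyond a 2-fold change per the authors' deposited table, 12 of them higher and 9 lower. The share was 8.94% for the other substitutions (60 of 671, 28 higher and 32 lower). Beside members already named, the 21 included mutants 334620 bp from PID1, 523 bp from SINHCAF, a gene of a histone deacetylase complex, and inside the exocyst gene EXOC2, which were picked after their values were seen. They stood at 1.04 ± 0.15, 1.04 ± 0.15 and 1.13 ± 0.19 per the authors' deposited table. Of the lowest 10, LOC124901498 at 2.76-fold and LLGL2 at 2.54-fold had intervals that began below 2-fold, as did IGSF11 and LOC105377015 among the highest 10.

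C-to-T mutants of 1 region moved the same way in some regions and opposite ways in others. A region held 1 member in 94 cases and 2 to 5 in 41 cases, and in 22 of the 41 at least 2 members were called. Of those 22 regions in the authors' deposited table, 6 held higher calls alone, 7 lower calls alone and 9 both (BACE2, C1QA, DIO3, GALR1, HROB, LLGL2, NWD1, RNF41 and SOD1). Among other substitutions 98 regions held at least 2 calls, 58 of them in both directions. The numbers of mutants per region were not matched in these comparisons. Regions with 2 or more held 114 C-to-T mutants in 41 regions, and 550 other substitutions in 163 regions, with up to 12 in 1 region. The median gap between the highest and the lowest member of a region was 0.73 in the authors' deposited table over 40 regions, and 0.72 over 156 regions for the other substitutions. Members of 1 region can have different wild-type constructs, as described below.

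The 6 regions with 4 or 5 members show this in full. In a region over an end of NWD1, a gene with NACHT and WD repeat domains, members stood at 0.50 ± 0.11, 0.33 ± 0.10, -0.22 ± 0.07 and -0.76 ± 0.09 per the authors' deposited table, and all 4 were called (chr19:16717674-16719978). The other substitutions of the NWD1 region gave 2 higher calls, 3 lower and 4 neither. Near C1QA, a chain of complement C1q, members stood at 0.56 ± 0.16, 0.22 ± 0.15, -0.07 ± 0.18 and -0.69 ± 0.23 per the authors' deposited table, the first called higher and the last lower (chr1:22632580-22633256). A region 700639 bp from the galanin receptor gene GALR1 had members at 0.14 ± 0.04, -0.11 ± 0.06, -0.22 ± 0.07 and -0.77 ± 0.15 in the authors' deposited table, called higher, not called, lower and lower (chr18:77978539-77978945).

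In the remaining 3 dense regions the C-to-T calls were all higher. A region 85037 bp from TCERG1L was tested with C-to-T changes alone, and its members stood at 0.70 ± 0.25, 0.23 ± 0.08, 0.06 ± 0.12 and -0.20 ± 0.30 per the authors' deposited table, the first pair called higher (chr10:131396758-131397027). Near CHMP4B, a subunit of the ESCRT-III membrane machinery, the 5 members stood at 0.50 ± 0.19, 0.24 ± 0.06, 0.02 ± 0.08, -0.05 ± 0.08 and -0.14 ± 0.11 per the authors' deposited table, again with the first pair called higher (chr20:33806304-33810614). The other substitutions of the CHMP4B region gave 1 higher call, 3 lower and 3 neither. At NRG1 the member at 4.13 stood alone: the other 4 were between -0.24 and 0.02 in the authors' deposited table, and none was called. Both C-to-G mutants of the NRG1 region were called lower, at -1.56 ± 0.34 and -1.06 ± 0.44 in the authors' deposited table.

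C-to-T mutants a few bases apart were compared pair by pair. There were 22 pairs of C-to-T mutants whose changed bases lay within 20 bases of each other in 20 regions. In 16 pairs 1 mutant was called and the other was not, in 3 the calls were opposite, in 2 they were the same and in 1 neither was called, in the authors' deposited table. Among 118 near pairs of the other substitutions 65 had 1 call, 13 opposite calls, 17 the same and 23 neither, and among 93 C-to-T pairs farther apart in a region the counts were 42, 12, 16 and 23. Among 811 pairs of other substitutions farther apart in a region, 379 had 1 call, 153 opposite calls, 161 the same and 118 neither. The 95% intervals did not overlap in 14 of 22 near C-to-T pairs (63.6%) and in 42 of 93 farther apart in a region (45.2%). For the other substitutions they did not overlap in 52 of 118 near pairs (44.1%) and in 437 of 811 farther apart (53.9%). Pairs can share a mutant or wild-type reads, and no difference between estimates was tested. Members of 1 region can also be set against different wild-type constructs. For the LRCH3 members at -0.79 and -0.20 these stood at 0.36 ± 0.11 and 4.68 ± 1.24 against scrambled sequence. Gaps between members were not separated from differences between their wild-type constructs.

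The closest pairs were 1 or 2 bases apart. In THOC2, a gene of mRNA export, neighbouring bases gave 0.12 ± 0.10 and -0.82 ± 0.15 in the authors' deposited table, the second called lower at 2.27-fold (chrX:123608198-123608920). Near EP300 neighbouring bases gave -0.22 ± 0.05, called lower, and -0.07 ± 0.04, not called, with overlapping intervals, per the authors' deposited table (chr22:41087513-41090530). At 2 bases apart, LRCH3 gave -0.79 ± 0.15 and -0.03 ± 0.08, and the zinc finger gene ZNF528 gave -0.21 ± 0.16 and 0.28 ± 0.07, per the authors' deposited table (chr3:197792364-197794253 and chr19:52406897-52408230). The intervals of the THOC2, LRCH3 and ZNF528 pairs did not overlap. The other 2 pairs at that distance had overlapping intervals, with AREL1 at -0.42 ± 0.12 and -0.11 ± 0.16 and BDH1 at -0.54 ± 0.19 and 0.05 ± 0.30, per the authors' deposited table. In each of these 6 pairs a single member was called.

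The 3 opposite pairs were at RNF41, LLGL2 and C1QA. In RNF41 the member at -2.25 had a neighbour 11 bases away at 0.49 ± 0.15, called higher, in the authors' deposited table. In LLGL2 a member at -0.89 ± 0.20 lay 8 bases from one at 0.28 ± 0.06 in the authors' deposited table. At C1QA the members at 0.56 and -0.69 lay 20 bases apart. The NOM1 member at -2.19 lay 14 bases from one at 0.30 ± 0.26 that was not called, and the region's T-to-C mutants stood at 2.89 ± 0.59 and 0.17 ± 0.18, the first called higher, per the authors' deposited table. The same-direction pairs were at NWD1, at 0.33 and 0.50, and at AREL1, a ubiquitin ligase gene, at -0.42 ± 0.12 and -0.63 ± 0.12 per the authors' deposited table (chr14:74710747-74711757).

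C-to-T mutants were also set beside other substitutions of the same region. In 95 regions that held both, the median size was 0.36 for 162 C-to-T mutants and 0.29 for 287 others, taken first within each region in the authors' deposited table. The C-to-T value was the larger in 52 of these regions and the other in 43. At LOC124901483 both other substitutions were called lower with the member, at -0.58 ± 0.13 and -1.40 ± 0.40 in the authors' deposited table. At MCPH1 the 5 other substitutions split, with C-to-A mutants at 0.73 ± 0.12 and 0.51 ± 0.16 called higher and the remaining 3 called lower, down to -1.57 ± 0.11 for a T-to-C mutant, in the authors' deposited table. At ETF1 the called others went against the higher member, at -0.39 ± 0.13 and -0.29 ± 0.10. At UCKL1 the other substitution was called lower with the member, at -0.88 ± 0.21. At NETO2, BDH1 and TDRD9 the others were called in both directions.

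The members were also split by how the change was written. Mutants written C to T had 33 higher and 20 lower calls in the authors' deposited table, so that 62.3% of their calls were higher (47.9 to 75.2%). Those written G to A had 31 higher and 31 lower calls, an equal split (exact interval of the higher share 37.0 to 63.0%). The median size was 0.30 and 0.31, respectively. The intervals overlapped, the difference was not tested, and the orientation of the cloned sequences is not given in the sources used here.

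Members lay both inside and between genes. By RefSeq protein-coding genes, 93 members were in regions inside a gene, 108 in intergenic regions and 7 in regions over a gene end, and 33 of the intergenic ones were within 1000 bp of a gene. Of those inside genes 53 of 93 (57.0%), and of those between genes 56 of 108 (51.9%), were called in the authors' deposited table. Over gene ends 6 of 7 were called, 4 of them in the single NWD1 region. For the other substitutions the counts were 220 of 359 inside genes (61.3%), 144 of 278 between genes (51.8%) and 17 of 34 over gene ends. The gene that names a region is the one that overlaps it or lies nearest, and no link of the region to that gene was measured.

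For 68 members the authors' deposited table of wild-type against scrambled sequence held a construct of the same name. Calls for them were higher in 23 cases, lower in 16 and neither in 29, or 57.4% called where 62.3% of all 358 in that table were. Both tables use wild-type reads, so their estimates were set side by side for named members alone. At SSB the wild-type construct stood at -0.20 ± 0.08 and was called lower, and at CIAO3 it stood at 0.07 ± 0.06 and was not called, per the authors' deposited table. At UCKL1 and NETO2 the wild-type constructs stood at 0.20 ± 0.10 and 0.38 ± 0.20, neither called, and at IGSF11 at -0.85 ± 0.37, called lower, per the authors' deposited table.

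Of the gene lists, androgen receptor and prostate lineage genes had 2 C-to-T members. In a region over an end of FOXA1, the gene of a pioneer factor that opens chromatin for the androgen receptor, the member was called higher at 0.66 ± 0.18 by the authors' deposited table, or 1.93-fold (chr14:37588593-37589983, interval 1.36 to 2.74). Inside NDRG1, an androgen-responsive gene, the member stood at 0.01 ± 0.06 and was not called, while C-to-G mutants of that region were called higher at 0.34 ± 0.06 and 0.31 ± 0.06, per the authors' deposited table (chr8:133252342-133253812). The 10 mutants of any kind on this list gave 3 higher calls, 2 lower and 5 neither. The neuroendocrine and splicing lists had 0 C-to-T members, beside 1 and 17 mutants of any kind, of which 0 and 8 were called.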

How the data were processed

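The deposited tables of comparisons used were mutant against wild-type (1025 constructs) and wild-type against scrambled sequence (358). Per the file headers, the estimates come from the authors' logit model, and they were taken as natural log odds ratios. The z value is a score deposited by the authors, and the p-value and q-value deposited by the authors were checked: they match a normal p for z, taken on both sides, with its Benjamini-Hochberg adjustment over each table. The direction was read from how the authors named each table. Bowtie2 and hg38 are named, without a role, in the submitters' processing notes. Barcode filters, construct length and depth: not given in the sources used here.

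Standard errors are the estimate divided by z, and 95% intervals are normal. Exact intervals of shares are Clopper-Pearson. Region starts and ends are printed as the table gives them, since 1 region then equals a RefSeq hairpin base for base. Genes come from RefSeq protein-coding genes (GRCh38.p14), by overlap or else distance. Positions of single mutations are not printed. The members, lists and named members were chosen with earlier results of these data known. Named were the 10 highest and 10 lowest called members (1 per region, the smallest p), the 10 with the smallest p, members of regions with 4 or more, and members of the 3 gene lists (androgen receptor and prostate lineage, neuroendocrine, splicing). Python 3.11.15, pandas 2.3.3 and scipy 1.17.1 were used, tested on simulated data.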

Additional observations from a re-analysis of the deposited data

How the results depend on the processing

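Bonferroni adjustment left 66 calls, 35 higher and 31 lower, and z divided by its robust SD left 0, 0 higher and 0 lower. That scaling treats the bulk of mutants as without effect, so the loss of calls does not show that they are false. With 1 member per region, the one with the smallest standard error, 32 lower calls were left, from fewer members. The mutants written C to T gave 53 calls, 33 higher and 20 lower, and those written G to A gave 62, 31 higher and 31 lower, since each holds part of the members. All other counts under an adjusted p of 0.01 or 0.1, without estimates beyond 10, without standard errors over 0.5, with 1 member per region or in regions of at most 2000 bases stayed within 1.5 times. The median estimate and median size stayed within their 95% order-statistic intervals (-0.05 to 0.12 and 0.25 to 0.39) without estimates beyond 10, without standard errors over 0.5, with 1 member per region, in either notation and in regions of at most 2000 bases. The median size left its interval in every subset by standard error. It was 0.20 up to 0.1, 0.41 from 0.1 to 0.2 and 0.44 from 0.2 to 0.5. The median estimate stayed inside its interval up to 0.1 and from 0.1 to 0.2, and was outside at 0.16 from 0.2 to 0.5. Over 0.5, with 3 bounded members, both medians were 2.55. The median estimate of 0.33 and the median size of 0.50 of the 7 gene-end members also lay outside. Of 40 called members among the 53 named by rule, 24 kept their call with Bonferroni adjustment and 0 with scaled z. No paired analysis was possible because the tables carry no values per library, and for the same reason no replicate could be left out.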

Other observations

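At 3 sites the authors' deposited table of wild-type against scrambled sequence held 2 constructs each. Near MACIR they stood at 0.88 ± 0.20 and -1.70 ± 0.28 against scrambled sequence, near P2RY8 at 0.78 ± 0.12 and -0.77 ± 0.12, and near IL3RA at 1.14 ± 0.08 and 0.52 ± 0.11, in the authors' deposited table. How such constructs differ is not given in the sources used here.

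Among the regions with C-to-T calls in both directions were one near BACE2, from -0.45 to 0.84, and one inside SOD1, from -0.67 to 1.00, in the authors' deposited table. Higher calls alone were made for both members inside NOP58, a core protein of box C/D small nucleolar particles, at 0.47 and 0.86 in the authors' deposited table. Lower calls alone were made for 2 of 3 members inside C2, a complement gene, down to -0.69, and for 2 of 3 inside CTIF, a translation initiation gene, down to -0.17, in the authors' deposited table.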
